A study of Mus musculus with 6 samples.

Results

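The genes described here are 10 small nucleolar RNA (snoRNA) host genes, namely Gas5, Snhg1, Snhg3, Snhg5, Snhg6, Snhg8, Snhg11, Snhg12, Snhg15 and Snhg18. They were chosen by symbol in the platform annotation, and each of the 10 had 1 row among the 23185 named genes of the array table. The samples were 3 hearts or heart cell preparations of irisin knockout FVB mice and 3 of wild type FVB littermates, with 1 Affymetrix array each. Irisin is a peptide hormone cut from the membrane protein encoded by Fndc5, and the knockout was made by injecting zygotes with Cas9 messenger RNA and a mixture of guide RNAs. Mice of both genotypes had been fed standard chow with 10% fat for 24 weeks, but their age and sex are not given in the labels. One label field calls the material cardiomyocytes and another myocardium, and the labels do not say whether the knockout mice descend from 1 founder. They do not state outright that the 3 arrays of a genotype are 3 different animals, so the p-values may measure only technical spread.

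snoRNAs guide chemical changes of ribosomal RNA. The C/D box family directs ribose methylation and the H/ACA box family directs the conversion of uridine to pseudouridine. In vertebrates most of them lie in introns of a host gene, and each is released when the intron is spliced out, debranched and trimmed back to the snoRNA particle. A long non-coding host leaves a spliced exon transcript besides, which is often destroyed by nonsense-mediated decay, so the level of the spliced host and that of its snoRNA can part. Many host transcripts begin with a terminal oligopyrimidine (TOP) tract, the start shared by ribosomal protein messenger RNAs.

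The sequences around the annotated starts are shown because the TOP tract is the promoter feature these genes are known for. They are 20 bases before to 30 bases from the start on, from RefSeq on GRCm38.p6, on the strand of the gene. Capitals mark a TOP-like run, taken here as a C followed by at least 4 bases that are each C or T, beginning within 5 bases of the start and read on the gene's own strand only. The first 3 genes are those that fell in the knockout, and the last 2 are hosts that did not pass the test and hold a run. Snhg11 and Snhg15, which did not pass either, hold no run and are not shown.
Gas5, second annotated start, chr1:161035146-161035195, plus strand: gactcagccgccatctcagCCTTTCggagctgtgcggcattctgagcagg
Snhg1, chr19:8723467-8723516, plus strand: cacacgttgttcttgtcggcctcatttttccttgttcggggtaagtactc
Snhg5, chr9:88522868-88522917, minus strand: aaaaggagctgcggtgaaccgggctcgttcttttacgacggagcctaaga
Snhg8, chr3:123508307-123508356, minus strand: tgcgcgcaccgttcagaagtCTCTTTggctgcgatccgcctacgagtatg
Snhg12, chr4:132308658-132308707, plus strand: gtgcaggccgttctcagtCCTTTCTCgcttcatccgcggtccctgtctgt

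The RefSeq promoter table matched 9 of the 10 genes, all but Snhg6, with 10 starts in all. A TOP-like run was found at 5 of these 10 starts, in Gas5, Snhg3, Snhg8, Snhg12 and Snhg18. Such a run was held by 18.3% of all 32851 annotated starts. Counted by gene, with a run at any start, it was held by 21.2% of all 27025 genes and by 29 of 60 ribosomal protein genes. Of the 3 host genes that fell, Gas5 held a run at 1 of its 2 starts, while the windows of Snhg1 and Snhg5 held none by this definition. A run in a window is a description of the letters only.

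Before the host genes, the genotype labels were checked on Fndc5. It read 7.68, 5.49 and 5.45 on the log2 scale in knockout replicates 1, 2 and 3, against 8.42, 8.40 and 7.83 in wild type replicates 1, 2 and 3. Fndc5 thus differed by -2.01 (SE 0.54; limma adjusted p = 0.0359). Knockout replicate 1 stood only 1.45-fold below the wild type mean, against 6.72-fold for the mean of the other 2 knockout arrays, and the tests of named genes, the counts of host genes, snoRNA rows and RNA processing lists, and the gaps between hosts and snoRNAs were therefore also computed without it. Which part of Fndc5 was deleted is not given in the sources used here. Array medians lay between 2.23 and 2.25 in the knockout and between 2.33 and 2.36 in wild type, and the number of arrays limits the precision of every value.

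In the knockout, 3 of the 10 snoRNA host genes fell, 0 rose and 7 did not pass the test (limma, adjusted p under 0.05 over all 23185 genes). Gas5 was 2.27-fold lower, Snhg1 2.08-fold lower and Snhg5 1.57-fold lower. Across all genes 6.18% were called lower and 10.4% higher in the knockout. Among the 9559 genes whose mean level lay between those of the dimmest and the brightest of the 10 host genes, 8.25% were called lower. Of the 2051 rows of RefSeq type lncRNA, 3.95% were called lower, and of the 627 in this level range other than the hosts, 9.09%. All 10 host differences were below 0 on the deposited values, with a median of -0.36 against -0.05 over all genes. Those 627 lncRNA rows had a median of -0.14, and 415 of them were below 0, as were 13246 of all 23185 genes. The sign of Snhg3, Snhg8 and Snhg15 was not stable: Snhg3 and Snhg15 turned positive after quantile normalization, and all 3 did after centring each array on its median. In 4 of the 10, all 3 knockout values lay below all 3 wild type values, against 17.0% of all genes and 24.4% of those 627 lncRNA rows.

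**Figure D1:**
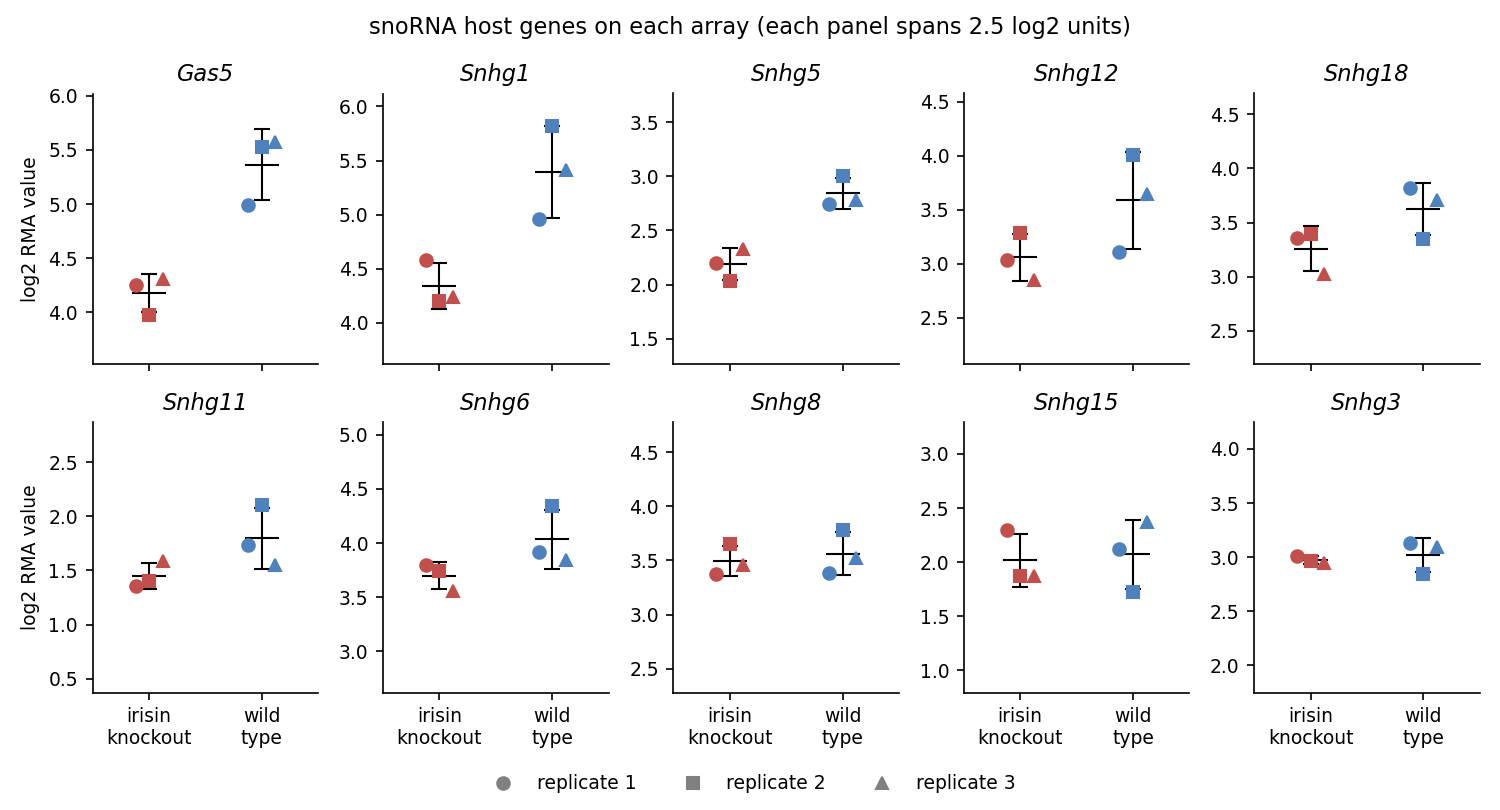
Log2 RMA value (vertical axis) of each snoRNA host gene on the 3 irisin knockout arrays (left, red) and the 3 wild type arrays (right, blue), with the mean and SD in black and the replicate number as symbol shape. Panels run from the most negative difference (Gas5, -1.18) to the least (Snhg3, -0.05), and Gas5, Snhg1, Snhg5 and Snhg6 show no overlap between the groups.

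Hosts of C/D box snoRNAs held all 3 calls. Of 5 such genes (Gas5, Snhg1, Snhg5, Snhg6 and Snhg18) 3 fell, with differences of -1.18 to -0.33, whereas 0 of 4 hosts of H/ACA box snoRNAs passed, with differences of -0.35 to -0.05. Called lower were 6.18% of all genes and 8.25% of those in the level range of the hosts. Gas5 and Snhg1 were the brightest of the 10 hosts, and Snhg15 and Snhg11, both H/ACA hosts, the dimmest. Whether the 2 kinds of host differ was not tested, nor was the part of level. This split was not among the planned comparisons.

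Gas5 (Entrez gene 14455), named for its accumulation in growth-arrested cells, holds C/D box snoRNAs in its introns. It read 4.25, 3.98 and 4.31 in knockout replicates 1, 2 and 3, against 4.99, 5.53 and 5.57 in wild type replicates 1, 2 and 3. Every knockout value was below every wild type value, and wild type replicate 1 was the lowest of its group. The difference was -1.18 (SE 0.18, 95% interval -1.60 to -0.77, limma adjusted p = 0.00360), and it passed in all 17 alternatives computed for single genes. Knockout replicate 1, in which Fndc5 was least reduced, lay between the other knockout arrays for Gas5, and without it the difference was -1.22 (adjusted p = 0.0176).

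Snhg1 (Entrez gene 83673) is the host of Snord22 and several further C/D box snoRNAs. It stood at 4.59, 4.20 and 4.24 in knockout replicates 1, 2 and 3, against 4.96, 5.82 and 5.41 in wild type replicates 1, 2 and 3. The groups did not overlap, and the arrays numbered 1 lay closest together. Snhg1 thus differed by -1.05 (SE 0.22, 95% interval -1.55 to -0.56; limma adjusted p = 0.0125). The call was lost without knockout replicate 2 (adjusted p = 0.0592) or knockout replicate 3 (0.0517), and without replicate 1 the difference was -1.17 (adjusted p = 0.0280).

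Snhg5 (Entrez gene 72655) is known in human as the host of the U50 C/D box snoRNAs. Its values were 2.20, 2.04 and 2.33 in knockout replicates 1, 2 and 3, against 2.74, 3.00 and 2.78 in wild type replicates 1, 2 and 3. All knockout arrays were lower, and the spread within each group was small, at an SD of 0.15 in the knockout and 0.14 in wild type. The difference was -0.65 (SE 0.13, 95% interval -0.95 to -0.35, limma adjusted p = 0.0118). Snhg5 was dim, in percentile 52.9 of all genes by mean level, and it lost its call without knockout replicate 2 (adjusted p = 0.0561).

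The other C/D box hosts, Snhg6 and Snhg18, had smaller differences that did not pass. Snhg6, the host of Snord87, read 3.80, 3.74 and 3.56 in knockout replicates 1, 2 and 3, against 3.92, 4.35 and 3.84 in wild type replicates 1, 2 and 3. Its groups did not overlap but nearly met, and the difference of -0.33 had a 95% interval of -0.70 to 0.03 (limma adjusted p = 0.205). Snhg18, the host of Snord123, read 3.36, 3.40 and 3.02 in the knockout, against 3.82, 3.35 and 3.71 in wild type. Knockout replicate 2 lay above wild type replicate 2, and the difference was -0.37 (95% interval -0.74 to 0.01, limma adjusted p = 0.182).

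Snhg12, which holds H/ACA box snoRNAs and a C/D box snoRNA, was uneven in wild type. It read 3.04, 3.29 and 2.86 in knockout replicates 1, 2 and 3, against 3.11, 4.0 and 3.65 in wild type replicates 1, 2 and 3. Wild type replicate 1 fell inside the knockout range. The difference was -0.53 (95% interval -1.04 to -0.01, limma adjusted p = 0.159), and Snhg12 passed only without wild type replicate 1 (-0.76, adjusted p = 0.0222).

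Snhg3, Snhg8, Snhg11 and Snhg15, the chosen hosts of H/ACA box snoRNAs alone, did not pass in any of the settings run. Snhg3, the host of the Snora73 (U17) RNAs, which act in the cleavage of ribosomal RNA precursors, read 3.01, 2.96 and 2.94 in the knockout and 3.13, 2.84 and 3.09 in wild type. Its knockout values lay within the wild type range, and the difference of -0.05 had a 95% interval of -0.33 to 0.23 (limma adjusted p = 0.837). Snhg8, the host of Snora24, read 3.38, 3.65 and 3.46 in the knockout and 3.39, 3.78 and 3.52 in wild type, a difference of -0.07 (95% interval -0.39 to 0.26, limma adjusted p = 0.812). These intervals do not reach the differences of Gas5 or Snhg1, although no direct test between host genes was made.

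The dimmest members were Snhg15 and Snhg11, at percentiles 46.2 and 36.9 of all genes. Snhg15, known in human as the host of an H/ACA box snoRNA, read 2.30, 1.87 and 1.88 in the knockout and 2.12, 1.73 and 2.37 in wild type (difference -0.05, 95% interval -0.49 to 0.38). Snhg11, best known from neurons, read 1.35, 1.40 and 1.58 in the knockout and 1.73, 2.10 and 1.55 in wild type (difference -0.35, 95% interval -0.72 to 0.02, limma adjusted p = 0.191). Both groups overlapped in each gene. No detection calls were used here, so values at this level are not told apart from background. All 10 host genes stayed after removal of the dimmest 30% of genes and 8 after removal of the dimmest 50%.

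**Figure D2:**
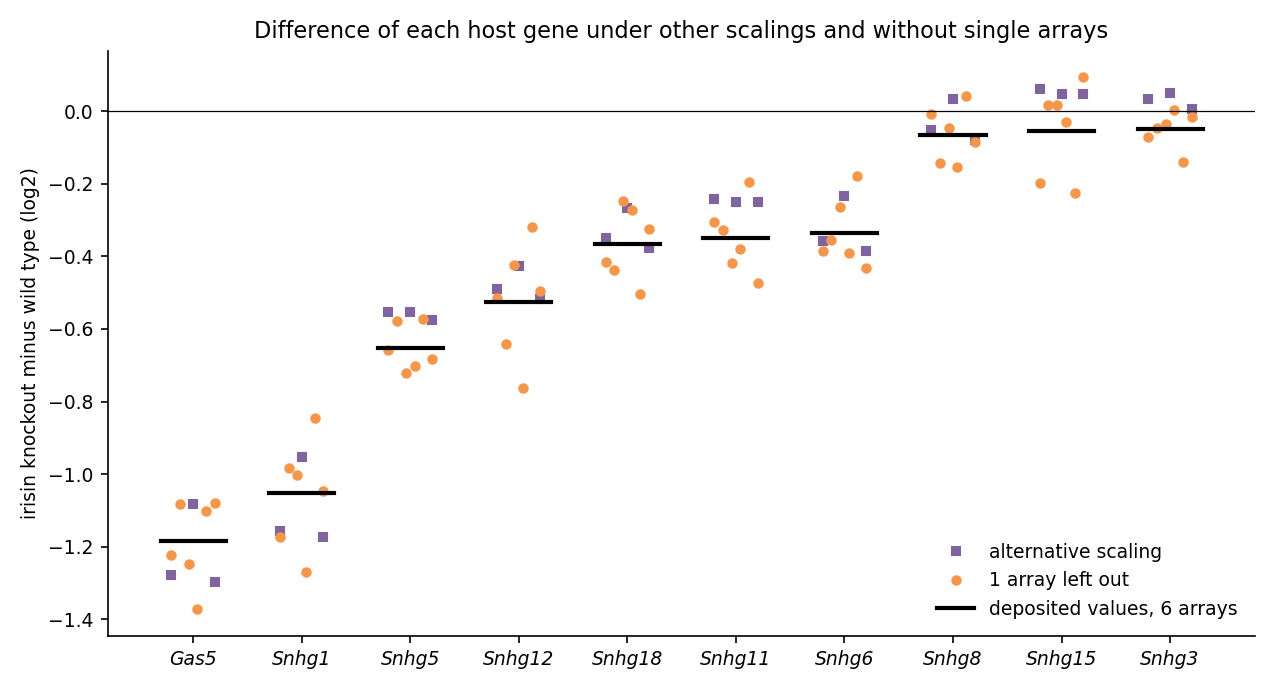
Irisin knockout minus wild type difference (log2, vertical axis) of each snoRNA host gene on the deposited values of all 6 arrays (black bar), under 3 other scalings (purple squares) and with 1 array left out (orange circles). All points of Gas5, Snhg1, Snhg5, Snhg6, Snhg11, Snhg12 and Snhg18 lie below 0, while those of Snhg3, Snhg8 and Snhg15 lie on both sides of 0.

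Most of the measured snoRNAs fell. Of 99 rows whose symbol starts with Snora or Snord, 80 fell, 0 rose and 19 did not pass, that is 80.8% lower against 6.18% of all genes, with a median difference of -1.47. By array their mean was 4.10, 4.30 and 4.28 in knockout replicates 1, 2 and 3, against 5.52, 5.93 and 5.71 in wild type replicates 1, 2 and 3. Both families took part: 27 of 34 Snora rows and 53 of 65 Snord rows fell. Without knockout replicate 1, 70 of the 99 fell. Of 529 microRNA rows, 55 fell and 5 rose, and the difference from the snoRNA rows was not tested. The recovery of short RNA by each extraction was not recorded in the labels, and its part in these values was not tested.

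Among snoRNA rows outside the 10 hosts, the greatest falls were those of Snora75, Snora74a and Snora62, all H/ACA box RNAs. Snora75, which lies in the nucleolin gene Ncl, read 1.36, 1.01 and 2.16 in the knockout against 6.58, 7.22 and 8.16 in wild type, a difference of -5.81 (SE 0.41). Snora74a, which lies in the long non-coding host Snhg4, differed by -4.21 (SE 0.40), and Snora62, which lies in the ribosomal protein gene Rpsa, by -3.90 (SE 0.16). Each had a limma adjusted p at or below 0.000607, and for each the knockout values were far below every wild type value.

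RefSeq places 30 snoRNA genes within the spans of the 10 hosts, of which 10 had a row, in 6 hosts. These 10 rows were Snord47 in Gas5, Snord22 in Snhg1, Snora73a and Snora73b in Snhg3, Snord87 in Snhg6, Snora16a, Snora44, Snora61 and Snord99 in Snhg12, and Snord123 in Snhg18. Of them 8 fell, 0 rose and Snora16a and Snora73b did not pass, a share close to that of the 89 snoRNA rows outside these hosts, of which 72 fell. All 10 had a more negative difference than their own host. The same held for 56 of 57 snoRNA rows in protein-coding hosts and 10 of 11 in other long non-coding hosts.

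Snord22 (Snhg1) read 6.32, 6.17 and 5.93 in knockout replicates 1, 2 and 3, against 8.57, 9.14 and 8.81 in wild type replicates 1, 2 and 3. The snoRNA fell 6.50-fold (limma adjusted p = 0.000165), while its host fell 2.08-fold. Snord47 (Gas5) read 6.17, 7.46 and 7.06 in the knockout, against 9.11, 9.51 and 9.15 in wild type, a 5.14-fold fall (adjusted p = 0.00170). Knockout replicate 1 was the lowest array for Snord47 but not for Gas5.

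In Snhg18, Snhg6 and Snhg12 a snoRNA fell although the host did not pass. Snord123 (Snhg18) read 2.81, 3.30 and 3.22 in the knockout, against 4.93, 4.68 and 5.29 in wild type, and fell 3.62-fold (limma adjusted p = 0.000793). Snord87 (Snhg6) read 7.08, 7.51 and 7.54 in the knockout, against 8.52, 8.96 and 8.55 in wild type, and fell 2.46-fold (adjusted p = 0.00228). The 4 snoRNAs of Snhg12 did not move by the same amount: Snora44 fell 4.75-fold, Snord99 2.09-fold and Snora61 1.62-fold, and Snora16a, with a difference of -0.71, had an adjusted p of 0.0942.

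Snora73a (Snhg3) read 2.78, 3.12 and 3.12 in the knockout, against 3.89, 4.31 and 3.62 in wild type, a 1.91-fold fall (limma adjusted p = 0.0120), whereas Snora73b read 3.81, 3.80 and 3.51 in the knockout, against 4.73, 3.99 and 3.31 in wild type (difference -0.30, adjusted p = 0.587). The pair are near-copies, so their signals may be shared. Snora73a lost its call without knockout replicate 1 (adjusted p = 0.0524) and Snora61 without knockout replicate 2 (0.0585).

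**Figure D3:**
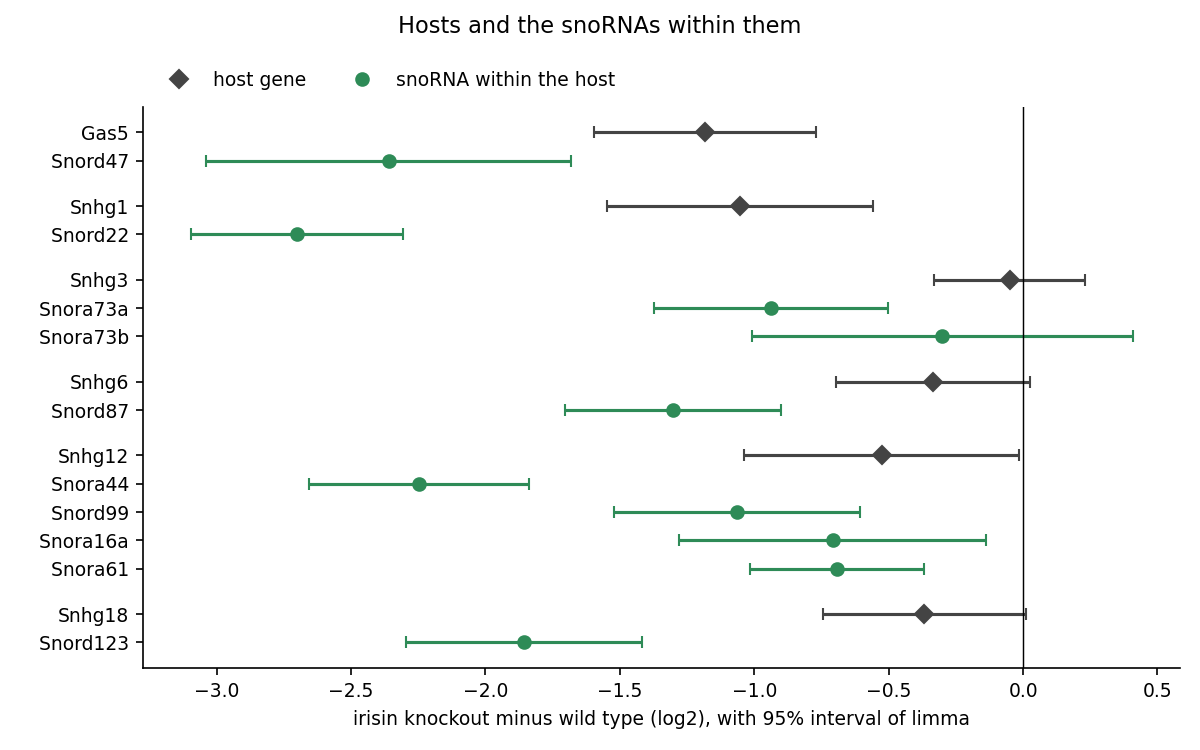
Irisin knockout minus wild type difference (log2, horizontal axis) with the 95% limma interval for the 6 host genes that hold a measured snoRNA (dark diamonds) and for each snoRNA within them (green circles). Every snoRNA lies to the left of its host, from Snord22 at -2.70 beside Snhg1 at -1.05 to Snora73b at -0.30 beside Snhg3 at -0.05.

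The gap between a host and its snoRNAs was then taken within each array, as the host's log2 value minus the mean of its snoRNA rows. Signals of different rows are not comparable as amounts of RNA, so only the change of the gap between genotypes was read. For Snhg1 the gap was -1.74, -1.97 and -1.69 in knockout replicates 1, 2 and 3, against -3.61, -3.33 and -3.40 in wild type replicates 1, 2 and 3, a change of 1.65. The changes were 1.49 for Snhg18, 1.18 for Gas5, 0.97 for Snhg6, 0.65 for Snhg12 and 0.57 for Snhg3. For 5 of the 6 hosts every knockout gap lay above every wild type gap. Since 97 of the 99 snoRNA rows had a negative difference, a rise of this gap is not a trait of these hosts alone. The exception was Snhg3, where a wild type array lay inside the knockout range.

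For these 5 hosts the two-sided exact permutation p was 0.1, the smallest that 3 arrays against 3 allow, or 0.12 after adjustment over the 6 hosts, and for Snhg3 the exact permutation p was 0.3. Leaving out any 1 array, quantile normalization and the median of the snoRNAs gave positive changes for all 6 hosts, from 0.39 to 1.77. With this number of arrays the gap test could not pass 0.05 for any host. The snoRNA rows were mostly brighter than the hosts, with Snord47, Snord22, Snora44, Snord87 and Snord99 at percentile 97.1 or above, and whether changes of dim rows are compressed on this array was not tested.

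**Figure D4:**
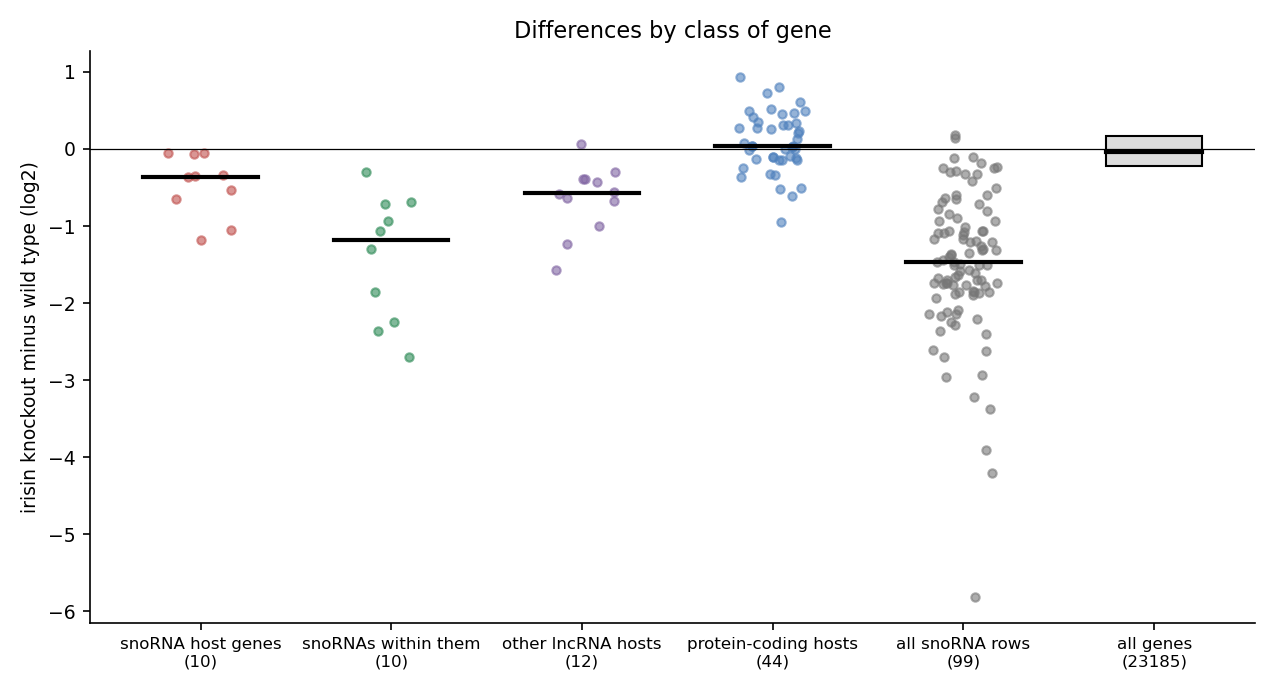
Irisin knockout minus wild type difference (log2, vertical axis) of each gene in 5 classes, with the class median as a black line, and the quartiles of all 23185 genes as a box from -0.22 to 0.17. The 10 host genes have a median of -0.36, between all genes at -0.05 and the snoRNA rows at -1.47.

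Among 12 other long non-coding RNAs known to hold snoRNAs, 6 fell, 0 rose and 6 did not pass. Called lower were 6.18% of all genes and 3.95% of lncRNA rows. Of the 627 lncRNA rows in the level range of the 10 hosts, where these 12 also lie, 9.09% were. Their median was -0.57, and Snhg9 at 0.06 was the only positive difference in this list. By RefSeq spans, 8 long non-coding genes other than the 10 hosts held snoRNA rows, of which 3 fell and 0 rose. They include 2410006H16Rik at 0.05 and 1110038B12Rik at 0.08, which are not in the list of 12 and did not pass. Snhg20 read 3.55, 3.43 and 3.53 in the knockout, against 4.42, 4.94 and 4.83 in wild type, a 2.34-fold fall (limma adjusted p = 0.00165). Rian, the imprinted host of a cluster of C/D box snoRNAs, read 2.01, 1.56 and 1.42 in the knockout, against 3.37, 2.76 and 3.57 in wild type, and fell 2.96-fold (adjusted p = 0.00327). Snhg4, the host of Snora74a, fell 1.99-fold (adjusted p = 0.00366). For these 3 genes no knockout value reached a wild type value.

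Few genes that build, process or degrade these RNAs passed the test, and their counts stand against 10.4% of all genes called higher and 6.18% called lower. Of 7 snoRNA particle core protein genes 2 rose and 0 fell: Dkc1, the pseudouridine synthase dyskerin, rose 2.04-fold (limma adjusted p = 0.0135) and Nop10, another H/ACA protein, 1.42-fold (0.0441). Nop10 lost its call in 8 of 17 alternatives, among them quantile normalization (0.313), and Dkc1 in 3, without knockout replicate 1 (0.0592), without knockout replicate 2 (0.0626) and without both arrays numbered 1 (0.0647). Of 12 assembly factors 2 rose and 0 fell, namely Taf9, which also serves the general transcription machinery, 2.19-fold and Pih1d1, a subunit of the R2TP chaperone, 1.66-fold. Pih1d1 lost its call without knockout replicate 1 (0.0789), knockout replicate 2 (0.0848) or wild type replicate 3 (0.0544).

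Among 16 genes of debranching and RNA trimming, Exosc8, an exosome subunit, rose 1.91-fold and the other 15 did not pass. Of 12 nonsense-mediated decay genes, Smg1, the kinase of the Upf1 helicase, was 2.31-fold lower (limma adjusted p = 0.00617) and 0 rose. The medians of these 4 lists were 0.26, 0.24, 0.10 and 0.03, against -0.05 over all genes.

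TOP messenger RNAs and their control genes held calls in both directions, again beside 10.4% of all genes higher and 6.18% lower. Of 59 cytosolic ribosomal protein genes 2 rose (3.39%) and 3 fell (5.08%), with a median of -0.05, as over all genes, and near-identical copies may share their signals. Many of these rows were dim, at percentiles of mean level as low as 1.2, and a gene that fell lay at percentile 8.5. Without detection calls such rows are not told apart from background, so the counts say little about dim rows. Rplp1, of the ribosomal stalk, was 1.94-fold lower, Rps4l, annotated as a transcribed pseudogene, 1.69-fold lower, and Rps16 2.27-fold higher. Of 14 other TOP messenger RNAs 2 rose and 0 fell, led by the initiation factor genes Eif3e at 0.73 and Eif4b at 0.57 on the log2 scale. Of 13 genes of TOP control 3 rose and 1 fell, with Tsc2, an inhibitor of mTOR signalling, at 0.87, the RNA-binding protein gene Larp4 at 0.72 and Tial1, a repressor of TOP translation, at -0.56. Eif4b and Tial1 each lost their call in 6 of 17 alternatives. Among these were quantile normalization for Eif4b (limma adjusted p = 0.147), also without short RNA rows (0.286), and centring each array on its median for Tial1 (0.0565). Rps16 and Rps4l lost theirs in 4 each, with single arrays or both arrays numbered 1 left out.

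Markers of cell types in heart tissue were counted in the same fit, in which 10.4% of all genes were higher and 6.18% lower. Of 11 cardiomyocyte markers 2 rose and 0 fell, and their mean level was 11.1 to 11.2 in the knockout and 10.8 to 11.2 in wild type. Of 8 fibroblast markers 4 fell (mean 6.13 to 6.30 in the knockout, 6.62 to 7.45 in wild type), of 7 endothelial markers 2 fell (6.99 to 7.26, against 7.52 to 7.60 in wild type), and of 7 smooth muscle and pericyte markers 4 fell and 1 rose (5.55 to 5.88, against 6.39 to 7.96 in wild type). Of 8 macrophage markers 0 passed in either direction, of 7 lymphocyte markers 1 rose and of 2 red cell markers 0 passed. The part of these differences in the host gene values was not tested, and fewer cells of a type and less RNA per cell cannot be told apart in such samples.

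By root mean square distance between profiles over the 6 arrays, each centred on its own mean, the nearest of 11580 genes of above-median level to Gas5 were Luc7l3 (distance 0.0554 log2 units), Snhg20 (0.0890) and Safb2 (0.0902). Those nearest to Snhg1 were Snord53 (0.0761), Sned1 (0.136) and Arrb2 (0.139), and those nearest to Snhg5 were Snrnp48 (0.0274), Adam15 (0.0321) and Map4k4 (0.0352). Such likeness mostly restates the difference between genotypes and is given as a description.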

How the data were processed

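Total RNA was extracted with TRIzol and biotin-labelled with the WT Plus kit, per the labels' protocols. Each array has 1 deposited log2 value per probe set, which the authors made with RMA in affy 1.61.0 and R 3.6.0, per the submitters' processing notes. Probe set definition: not given in the sources used here, so whether host probes lie in exons is unknown. Of 25206 rows, 23185 had 1 symbol, 0 several and 2021 none, and those without a symbol were not tested.

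Groups came from the titles. The test was limma 3.58.1 in R 4.3.3 (lmFit, eBayes, genotype only, two-sided), with Benjamini-Hochberg adjustment over 23185 genes and a threshold of 0.05. Differences are knockout minus wild type. Hosted snoRNAs were those within a host's span in the RefSeq table of GRCm38.p6, all of whose names match the rows. That table holds no strand, so the planned condition of equal strand was not applied. Plots used matplotlib 3.10.9 in Python 3.11.15. Named are the 10 hosts, their snoRNAs, up to 3 members past the threshold in each list by p, the 3 other snoRNA rows with the greatest falls, and the 3 nearest profiles. Snora16a, Snora73b, Snhg9, Ncl, Rpsa, 2410006H16Rik and 1110038B12Rik were named after their values were seen.

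The members and lists were chosen with earlier results of these data known. On simulated data (23185 genes, knockout against wild type) 5 of 67 genes changed by 0.5, 41 of 67 by 1 and 59 of 66 by 2 log2 units were recovered, with 4 unchanged genes called. No other genes were changed there, far fewer than the 1432 called lower and 2416 called higher in the data. The adjusted p depends on that number, so the recovered shares need not hold for the data. Replicate numbers did not pair the samples: deviations of arrays with the same number correlated at 0.09, 0.05 and 0.07 across genes.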

Additional observations from a re-analysis of the deposited data

How the results depend on the processing

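The alternatives were other scalings, filters on dim genes, all rows, other variance models, array weights, a replicate block, leaving out 1 array or both arrays numbered 1, and other thresholds. Host genes called lower numbered 3 in each setting except 1 at a threshold of 0.01 (Gas5) and 1 to 4 without single arrays, namely 1 without knockout replicate 2, 2 without knockout replicate 3 and 4 without wild type replicate 1. None was called higher. snoRNA rows called lower numbered 66 at a threshold of 0.01, 82 at 0.1 and 70 to 80 without single arrays. They could not be tested where short RNA rows were left out. With the replicate block 3 host genes and 80 snoRNA rows were lower, as without it. It moved Gas5 to an adjusted p of 0.00688, Snhg1 to 0.0244 and Snhg5 to 0.0294. Host genes without a call changed sign. Snhg3 went to 0.0323 after quantile normalization, 0.0505 after centring, 0.0049 after quantile normalization without short RNA rows, and -0.14 to 0.0041 without single arrays. Snhg15 went to 0.0614, 0.0459 and 0.0464 under these scalings and -0.23 to 0.0931 without single arrays, and Snhg8 to 0.0342 after centring and -0.15 to 0.0418 without single arrays. Snora73b ranged from -0.65 to 0.0602 without single arrays and went to 0.0077 without both arrays numbered 1. The cause was not tested. Under robust empirical Bayes Fndc5 stayed at -2.01 and lost its call (adjusted p = 0.0635), and it ranged from -2.75 to -1.63 without single arrays. Of these 6 omissions, only that of knockout replicate 1 kept its call. Over the lists of RNA processing genes and other hosts together, 12 genes rose and 11 fell, against 6 to 13 and 6 to 12 without single arrays. Genes that rose numbered 7, 6 and 6 without knockout replicate 1, knockout replicate 2 or wild type replicate 3, and genes that fell 6 and 7 without knockout replicate 1 or 2. The share of called genes that were higher was 62.8%, against 75.4% after centring 56.5% after quantile normalization and 55.2% after the same without short RNA rows. Centring moved the median of all genes from -0.05 to 0.06.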

Other observations

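By RefSeq spans, 44 protein-coding genes held 57 of the snoRNA rows. Of these hosts 5 were higher (11.4%) and 2 lower (4.55%) in the knockout, shares near the 10.4% and 6.18% of all genes, with a median of 0.04. Of the snoRNA rows within them 46 fell and 0 rose, with a median of -1.47, and in 56 of 57 pairs the snoRNA had the more negative difference. Rpsa, the host of Snora62, differed by -0.11, and Ncl, the host of Snora75, by -0.02, and neither passed. Rpsa was dim, at a mean level of 1.51, so its difference says little, whereas Ncl stood at 6.88. Mean levels of the 44 hosts ran from 0.89 to 9.71, and the dim ones are not told apart from background. Whether protein-coding and long non-coding hosts differ was not tested.

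The snoRNA rows were also counted by level, with no test between bright and dim rows. Of 81 rows above the median level of all genes 74 fell, with a median of -1.64, and of 18 rows at or below it 6 fell, with a median of -0.46. Snora3, in Rpl27a, was a bright exception at 6.80, 5.94 and 6.34 in knockout replicates 1, 2 and 3, against 5.52, 6.42 and 6.60 in wild type replicates 1, 2 and 3. It was chosen after its values were seen.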
